A study of Mus musculus with 16 samples.

Results

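Chemokine receptors that direct T cells out of the circulation and into tissue were followed here through CD4+ T cells of mice infected with the hookworm Nippostrongylus brasiliensis. The set was chosen by name and holds 8 receptor genes, Ccr2, Ccr4, Ccr6, Ccr8, Ccr10, Cxcr3, Cxcr4 and Cxcr6, of 31053 genes in the lung and mesenteric lymph node (MLN) tables and of 32285 genes in the table of mediastinal lymph node (medLN) and MLN cells. All cells came from 4get mice on the C57BL/6 background, in which cells that transcribe Il4 carry green fluorescent protein (IL-4eGFP), taken on day 10 after infection with 500 larvae, and uninfected mice were not analysed here. The first run used 2 mice aged 13 weeks, whose lungs and MLN each gave sorted CD4+ IL-4eGFP+ cells, and gene expression was read together with T cell receptor (TCR) contigs. Lungs were perfused, but some intravascular cells remained in them. Lungs were also digested with a dissociation kit and purified on Percoll, while nodes were mashed through a strainer. Organ and preparation therefore cannot be told apart between lung and MLN. In the second run, IL-4eGFP+ and IL-4eGFP- CD4+ cells of medLN and MLN came from 2 other mice aged 10 weeks, with hashtag antibodies marking organ and mouse. Each gate was 1 library there, so gate and library cannot be told apart. The reporter marks Il4 transcription and not Th2 cells alone, and it holds the marker protein for some time.

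Chemokine receptors are G protein-coupled receptors of leukocytes. A chemokine bound on their outer face makes them act through Gi proteins on adhesion and cell movement, and arrestins and RGS proteins then damp the signal. Naive T cells enter lymph nodes through CCR7, while effector T cells gain receptors for chemokines made in inflamed or barrier tissue. CCR4 and CCR8 are known from Th2 cells and regulatory T (Treg) cells, CXCR3 from Th1 cells, CCR6 from Th17 cells and CXCR6 from T cells that stay in tissue.

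The lung libraries held 1082 and 416 cells with medians of 6910 and 5766 unique molecular identifiers (UMIs, counted RNA molecules) per cell, and the MLN libraries of the same mice held 2462 and 754 cells with medians of 4980 and 4971. In the second run each mouse, organ and gate had 1992 to 2249 cells with medians of 3166 to 3667 UMIs. Levels are given as CPM, the UMIs of a gene in the summed cells of 1 sample scaled to a common total, without the 271 TCR genes. CD4 and Th2 markers summed to 4347 to 5388 CPM in IL-4eGFP+ samples with none of 8 at 0, and to 3244 to 3425 in IL-4eGFP- samples, where Il4 was at 0 in both MLN samples. Myeloid markers summed to 0.707 and 1.08 CPM in the lung, with 7 and 8 of 10 at 0, and to 24.2 and 43.8 CPM in the MLN of the same mice.

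Of the 8 genes, 4 lie on chromosome 9 of the mouse genome (GRCm38, GENCODE vM21). Ccr4 spans chr9:114490316-114504916 on the minus strand, and Ccr8 (chr9:120092114-120094906), Cxcr6 (chr9:123806475-123811760) and Ccr2 (chr9:124101950-124113557) lie on the plus strand. Cxcr6 overlaps Fyco1 on the opposite strand. The others are Ccr6 (chr17:8236043-8257141), Ccr10 (chr11:101172997-101175443, minus strand, inside Cntnap1 on the opposite strand), Cxcr3 (chrX:101731535-101734269, minus strand) and Cxcr4 (chr1:128588199-128592293, minus strand). Below are the 250 bases before the RefSeq start (GRCm38.p6, 5′ to 3′ on the gene's own strand) of Ccr8, Cxcr6 and Ccr4. Of these, Ccr8 and Cxcr6 were both higher in the lung, by unlike amounts, and Ccr4 differed least among the receptors called there. The RefSeq starts lie inside the GENCODE spans, that of Ccr4 far inside. The last bases of the Ccr8 and Cxcr6 windows and the whole Ccr4 window thus lie within the annotated genes. The Ccr2 window, most of which lies inside its GENCODE span, is not shown. Capitals mark a match to AGATAA or its reverse complement TTATCT (the core bound by GATA factors) in Ccr8 and to TGANTCA (AP-1) in Ccr4.
Ccr8, chr9:120091883-120092132, plus strand: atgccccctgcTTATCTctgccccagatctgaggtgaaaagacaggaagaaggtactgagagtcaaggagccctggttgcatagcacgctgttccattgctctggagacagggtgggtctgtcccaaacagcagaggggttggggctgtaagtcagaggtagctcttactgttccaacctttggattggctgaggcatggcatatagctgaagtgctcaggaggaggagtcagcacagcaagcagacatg
Cxcr6, chr9:123806227-123806476, plus strand: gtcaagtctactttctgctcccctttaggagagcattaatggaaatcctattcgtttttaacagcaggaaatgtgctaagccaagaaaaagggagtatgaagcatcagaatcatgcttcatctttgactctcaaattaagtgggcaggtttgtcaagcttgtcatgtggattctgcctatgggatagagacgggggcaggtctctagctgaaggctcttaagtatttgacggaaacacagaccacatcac
Ccr4, chr9:114496545-114496794, minus strand: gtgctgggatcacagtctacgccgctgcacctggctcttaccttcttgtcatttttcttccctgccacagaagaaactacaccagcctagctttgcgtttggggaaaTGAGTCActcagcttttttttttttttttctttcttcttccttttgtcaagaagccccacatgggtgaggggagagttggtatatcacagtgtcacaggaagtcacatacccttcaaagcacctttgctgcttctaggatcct

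The GATA match lay 239 bases before the start of Ccr8 and, in the window not shown, 97 before that of Ccr2, and the AP-1 match lay 143 bases before the start of Ccr4. Cxcr6 had no match to either motif, nor to TCACACC (a T-box core), in this window. Both strands were searched, and no window printed here held more than 1 match. Over 32851 promoters of this length, 9.99% held the GATA letters, 6.75% the AP-1 letters and 3.33% the T-box letters. Of the other members, Ccr6 has 2 starts, the second with a GATA match 70 bases before it, and Cxcr3 and Cxcr4 had no match. A match is a description of letters and not of binding.

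Lung and MLN of the same infected mice were compared to ask which homing receptors distinguish the IL-4eGFP+ cells of these organs. Larvae first migrate into the lung and later settle in the small intestine, and the MLN drains the gut. Of the 6 receptors with enough UMIs to test, 5 were higher in the lung and none was lower: Ccr8, Ccr2, Cxcr6, Cxcr4 and Ccr4. In this comparison 31.0% of the 10587 genes tested passed the threshold (edgeR's quasi-likelihood test on UMI sums, adjusted p under 0.05), and the median log2 fold change was 1.54 over the 6 receptors and -0.01 over all genes. With 2 mice per organ, errors below are SD with n = 2 and cover the spread between these libraries.

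Ccr8, a receptor for CCL1 and in mice for CCL8, stood at 180 and 145 CPM in the lung and at 2.29 and 3.82 CPM in the MLN of mouse 1 and mouse 2. The lowest lung library was far above the highest MLN library. The log2 difference was 6.05 (SE 0.244, edgeR adjusted p = 4.44e-07) between means of 163 ± 24.9 and 3.05 ± 1.08 CPM. Only 50 Ccr8 UMIs were counted in the MLN against 1936 in the lung, and 18 of the 33 in MLN 1 came from 1 cell with an invariant TCR alpha chain. Without the cells that carry such chains the log2 difference was 6.97.

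Ccr2, the receptor for CCL2 that also marks monocytes, measured 272 and 281 CPM in the lung and 20.2 and 20.7 CPM in the MLN. The mice differed little and the organs did not overlap. The log2 difference was 3.90 (SE 0.125, 95% interval 3.62 to 4.18, edgeR adjusted p = 2.04e-07). Myeloid markers were lower in the lung than in the MLN. The Ccr2 difference was 3.87 when cells with a myeloid UMI were left out, a step added after seeing the data. The part of myeloid RNA in the Ccr2 difference was not tested.

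Cxcr6, the receptor for membrane-bound CXCL16, was the most abundant of the 8 by UMI count in these libraries, with 523 and 590 CPM in the lung and 145 and 155 CPM in the MLN. It was thus well expressed in both organs, with a log2 difference of 2.02 in favour of the lung (SE 0.116, edgeR adjusted p = 2.62e-06). Cxcr4, the receptor for CXCL12 that holds cells in marrow and follicles, measured 23.6 and 32.6 CPM in the lung against 13.8 and 15.5 in the MLN, a log2 difference of 1.05 (SE 0.171, edgeR adjusted p = 0.00157). Ccr4, which binds CCL17 and CCL22, measured 93.0 and 134 CPM against 68.4 and 71.9 and had the smallest of the differences called, 0.80 (SE 0.139, edgeR adjusted p = 0.00219).

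Cxcr3, the receptor for the interferon-induced CXCL9 and CXCL10, did not separate the organs. Lung 1 had 5.30 CPM and lung 2 had 33.0, on either side of MLN 1 with 8.52 and MLN 2 with 17.5. In both organs mouse 2 had the higher value. The log2 difference was 0.51 with a 95% interval of -0.93 to 1.94 (edgeR adjusted p = 0.585), it was 1.55 (edgeR adjusted p = 0.00218) without lung 1 and -0.96 without lung 2, so that its direction rested on 1 library.

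Ccr6, the receptor for CCL20, and Ccr10, the receptor for CCL27 and CCL28, were too low to test. Ccr6 gave 1 UMI in the 2 lung libraries and 10 in the MLN, and Ccr10 gave 3 and 8. In lung 2, 0 of 416 cells had a Ccr6 UMI, which allows a share of up to 0.721%, and in MLN 2, 0 of 754 cells had a Ccr10 UMI, which allows up to 0.398%. These limits and all intervals of shares cover counting error only.

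**Figure D1:**
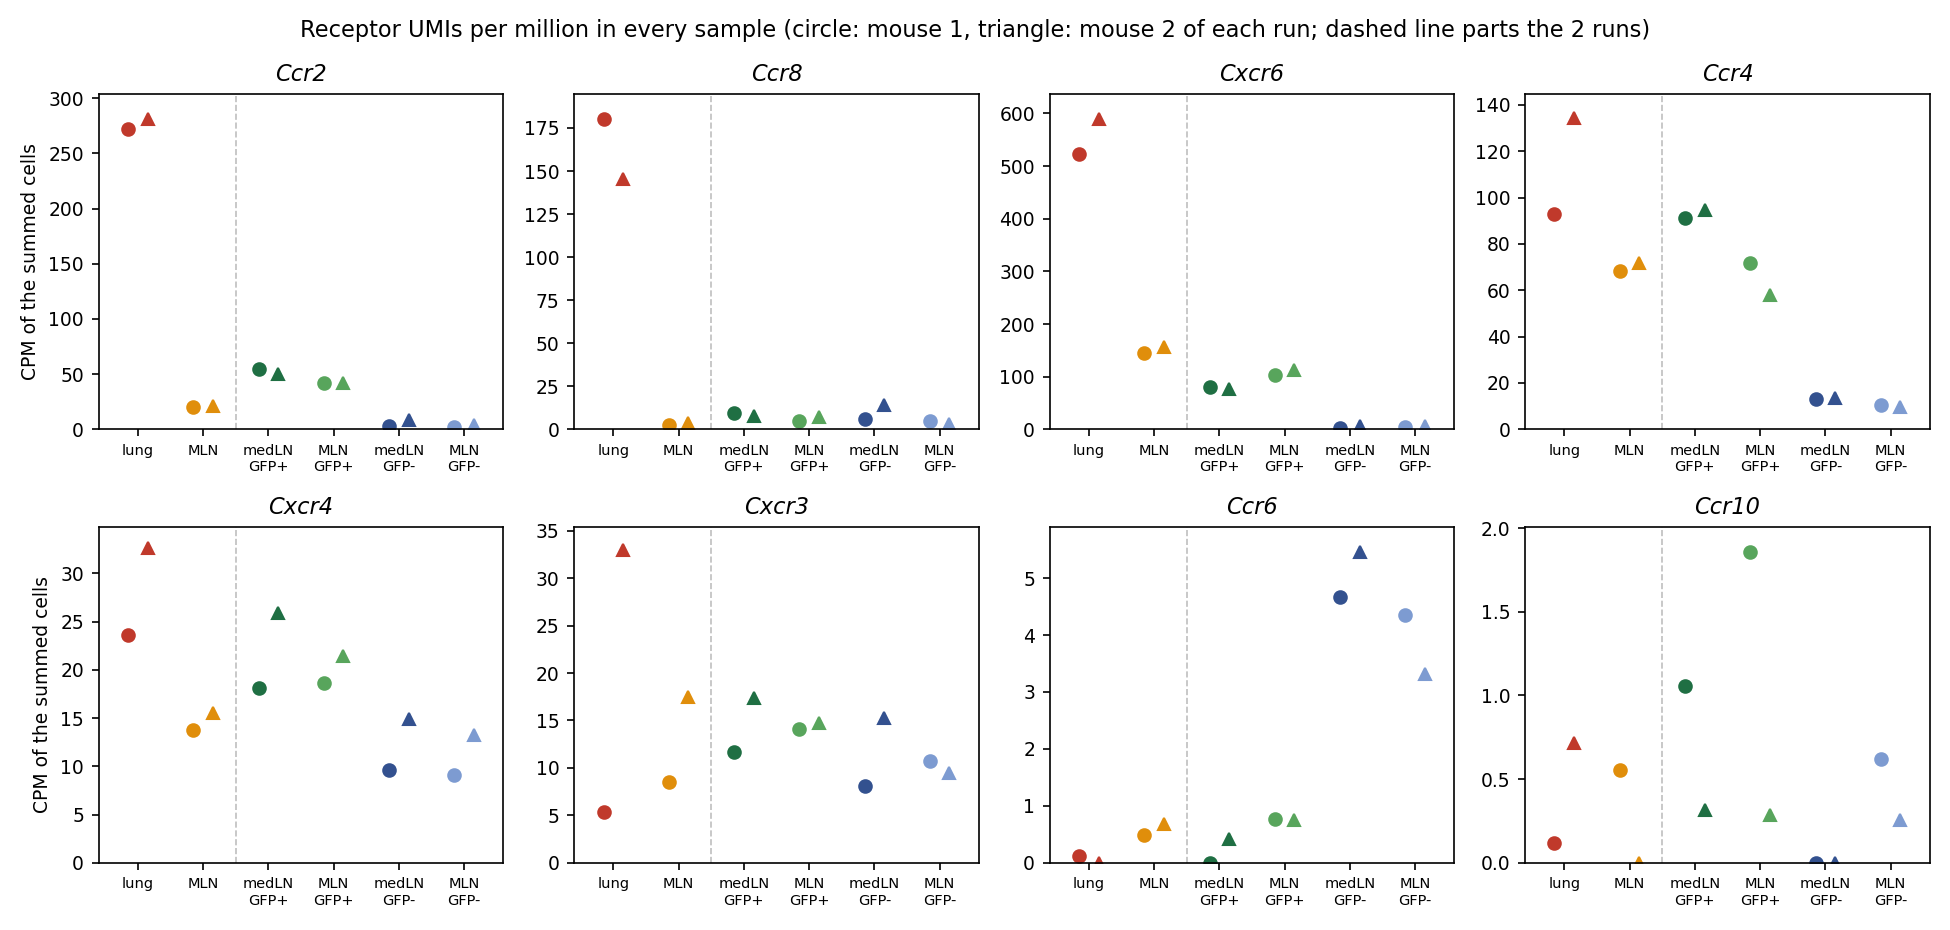
Level of each of the 8 receptors (vertical axis, CPM on a linear scale that starts at 0 and differs between panels) in the 12 samples, lung and MLN of the first run to the left of the dashed line and the IL-4eGFP+ and IL-4eGFP- node samples of the second run to its right, with circles for mouse 1 and triangles for mouse 2. Ccr2, Ccr8 and Cxcr6 peak in the lung, Ccr6 in the IL-4eGFP- samples, and Cxcr3 spreads between the mice.

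Higher levels went with more cells with a UMI and, before thinning, with more UMIs in those cells. Lung cells were deeper, and UMIs per positive cell were not compared at equal depth. Every cell was thinned to 2000 UMIs so that shares could be compared across depths, which left 1068 and 408 lung cells and 2411 and 743 MLN cells. Ccr2 was then found in 32.8% (exact 95% interval 30.0 to 35.7) and 34.8% (30.2 to 39.6) of lung cells but in 2.90% (2.27 to 3.65) and 3.36% (2.19 to 4.93) of MLN cells. Ccr8 was found in 21.7% (19.3 to 24.3) and 19.6% (15.9 to 23.8) of lung cells and in 0.207% (0.0674 to 0.483) and 0.404% (0.0833 to 1.18) of MLN cells. Both receptors thus went from rare to common between the organs of each mouse. Cxcr6 was found in 54.7% and 58.1% against 19.6% and 18.7%, and Ccr4 in 14.5% and 17.6% against 11.2% and 11.7%.

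Before thinning, the shares in lung 1, lung 2, MLN 1 and MLN 2 were 52.1%, 56.3%, 5.48% and 5.57% for Ccr2 and 38.1%, 33.9%, 0.528% and 1.19% for Ccr8. They were 78.9%, 78.4%, 34.0% and 32.9% for Cxcr6 and 36.4%, 41.8%, 26.0% and 28.5% for Ccr4. Among cells with a UMI of the receptor, a lung cell held on average 4.09 and 3.35 Ccr2 UMIs against 2.16 and 2.19 in the MLN, and 5.20 and 5.05 Cxcr6 UMIs against 2.50 and 2.79. As a reference for free RNA, 4017 naive-like IL-4eGFP- cells of the second run (with Ccr7 and without Cd44, Foxp3, Icos or Mki67, median 3460 UMIs) were counted. Of these, 0 had a Ccr2 UMI, which allows up to 0.0747%, and 0.423% had one of Ccr8, 0.473% of Ccr4 and 0.597% of Cxcr6. The thinned Ccr8 shares in the MLN, 0.207% and 0.404%, were close to the thinned 0.289% of this reference. The reference comes from another library and other mice, whose free RNA can differ, so it sets no floor for the first run. Before thinning, the Ccr8 UMIs of the MLN were gathered in few cells, with 33 UMIs in 13 cells of MLN 1 and 17 in 9 cells of MLN 2, and in MLN 2 a Ccr8 UMI was found in 4 of 20 cells with an invariant TCR alpha chain against 5 of 734 others.

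**Figure D2:**
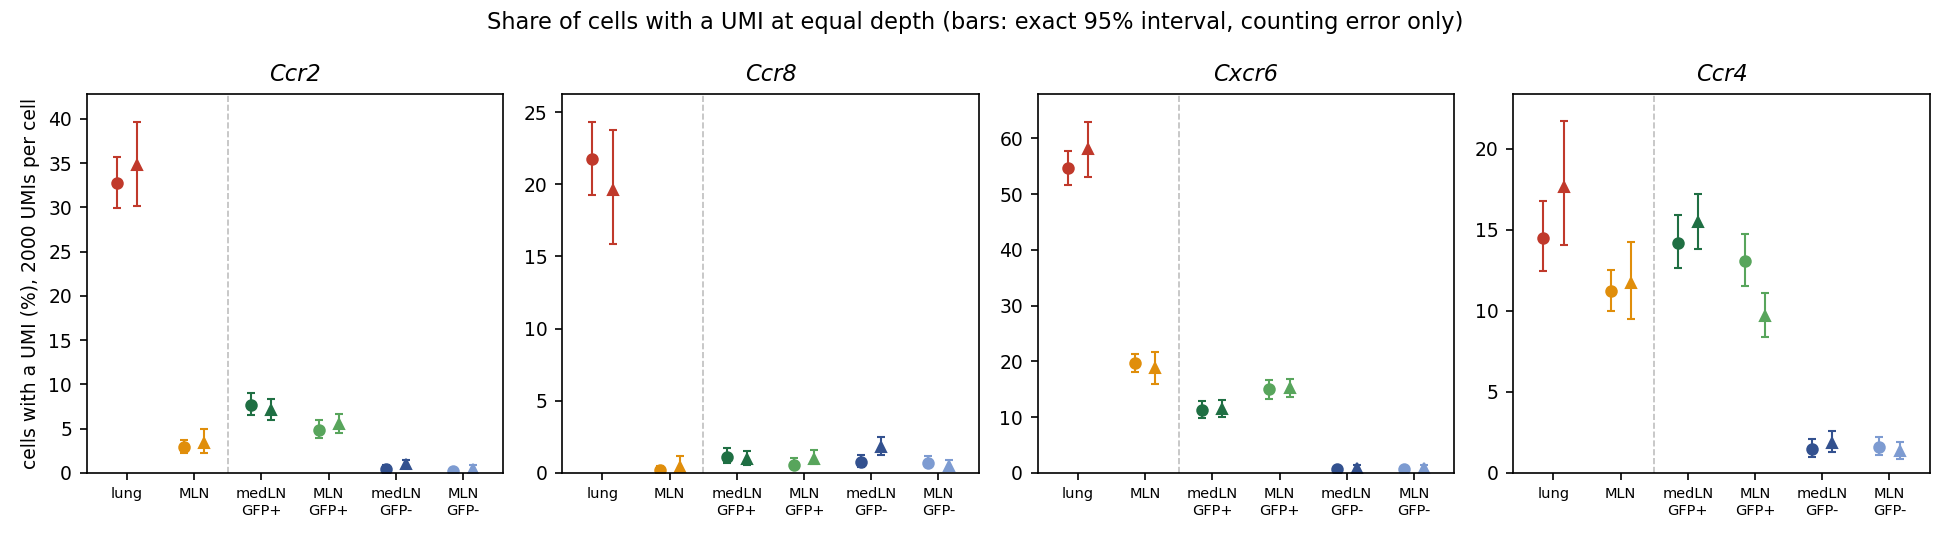
Percent of cells with at least 1 UMI of Ccr2, Ccr8, Cxcr6 and Ccr4 after thinning every cell to 2000 UMIs (vertical axis) in each sample, with exact 95% intervals as bars that cover counting error only. Lung shares of Ccr2, 32.8% and 34.8%, and of Ccr8, 21.7% and 19.6%, stand clear of every node sample.

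The genes around these receptors were taken from lists of other chemokine receptors, ligands of the 8 receptors, signaling genes and desensitization genes. Of 6 other receptors tested between lung and MLN, 4 were higher in the lung and 1 was lower. The follicle receptor Cxcr5 was lower, at 4.14 ± 2.81 against 134 ± 13.7 CPM, while Ccrl2, an atypical receptor, stood at 31.3 ± 0.304 against 2.24 ± 0.327 CPM and Ccr1 at 10.2 ± 1.27 against 0.605 ± 0.221. Ccr7 and Cx3cr1 were higher as well, and Ccr9, the gut-homing receptor, measured 56.4 ± 17.4 against 86.1 ± 23.0 CPM and did not pass (edgeR adjusted p = 0.246). Naive T cell markers, a list that holds Ccr7, summed to 260 and 343 CPM in the lung against 800 and 802 in the MLN. Of 4 tested, 1 was higher in the lung and 2 were lower. Their part in the receptor differences was not tested. Of 3 ligands tested, 2 were higher in the lung libraries, namely the CCR8 ligand Ccl1 at 158 ± 81.0 against 10.9 ± 1.79 CPM and the CXCR3 ligand Cxcl10 at 25.5 ± 0.508 against 4.13 ± 0.128.

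Of 21 signaling genes, 8 were higher in the lung and 1 was lower, where 31.0% of all genes passed. Pik3r5, a regulatory subunit of the phosphoinositide kinase downstream of these receptors, measured 43.6 ± 17.4 CPM in the lung against 10.8 ± 3.80 in the MLN, Rap1b, a GTPase of integrin activation, 638 ± 165 against 281 ± 10.2, and Gnb2, a G protein beta subunit, 586 ± 30.4 against 377 ± 9.25. Of 12 desensitization genes, 4 were higher and 2 lower, against the same 31.0%. The higher ones included Rgs2, Rgs1 and Rgs16, which speed up the turning off of G proteins, with Rgs2 at 294 ± 0.173 against 5.57 ± 1.52 CPM and Rgs1 at 1246 ± 142 against 153 ± 6.75.

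The nodes draining lung and gut were compared in the second run. In IL-4eGFP+ cells 2 of 6 receptors tested differed between medLN and MLN, where 1.28% of 11262 genes passed. Ccr4 was higher in the medLN, with 91.0 and 94.4 CPM against 71.8 and 57.8 in the MLN, a log2 difference of 0.51 (SE 0.0953, edgeR adjusted p = 0.0478). Cxcr6 was lower in the medLN, with 81.0 and 76.8 CPM against 103 and 112, a log2 difference of -0.46 (SE 0.0747, edgeR adjusted p = 0.0314). The values of the 2 nodes did not overlap for either gene, but both calls were lost without MLN 2 (edgeR adjusted p = 0.0954 and 0.0899), without medLN 1 (0.240 and 0.186), without medLN 2 (0.311 and 0.284) and in cells of equal depth (0.111 and 0.208). With a sample left out the log2 differences ran from 0.37 to 0.66 for Ccr4 and from -0.53 to -0.38 for Cxcr6. Each of these fits leaves 1 sample in 1 node, which is assumed to vary like the other node. Innate-like T cell markers summed to 30.0 and 28.4 CPM in the medLN against 71.3 and 88.0 in the MLN, and 2 of 4 tested were lower, none higher. Their part in the Cxcr6 difference was not tested.

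Ccr2 and Ccr8, the receptors with the largest lung differences among the 6 tested, were not called between the nodes. Ccr2 measured 54.3 and 50.1 CPM in the medLN and 41.6 and 42.1 in the MLN (log2 difference 0.31, edgeR adjusted p = 0.143), and Ccr8 measured 9.19 and 7.61 against 4.58 and 7.17 (0.49, edgeR adjusted p = 0.486). Both were somewhat above the MLN in each medLN sample, by less than the test could call. Among other receptors, 2 of 7 were higher in the medLN and 1 was lower, with Ccr3 at 3.38 ± 0.302 against 0.462 ± 0.119 CPM. Cxcr5 did not pass at 61.0 ± 12.9 against 81.2 ± 13.5 (edgeR adjusted p = 0.267). No ligand (of 4), signaling gene (of 21) or desensitization gene (of 12) passed edgeR's test.

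In IL-4eGFP- cells 0 of 7 receptors passed edgeR's test between the nodes, where 0.178% of 10682 genes did, and 1 receptor and 667 genes in all had an unadjusted p under 0.05. DESeq2 called 0 receptors as well. Ccr8 measured 5.84 and 14.1 CPM in the medLN and 4.72 and 2.93 in the MLN (log2 difference 1.32, SE 0.377, edgeR adjusted p = 0.448). Its call changed with the samples used, and edgeR adjusted p was 9.3e-06 without MLN 1, 0.0193 without MLN 2 and 7.78e-09 without medLN 1, in fits that leave 1 sample in 1 node and take its spread from the other. With cells holding a Foxp3 UMI left out, the log2 difference of Ccr8 was 0.83 (edgeR adjusted p = 0.989). The organ difference itself was compared between the gates, and 0 of the receptors tested passed where 0.156% of 11533 genes did, with 1 receptor and 807 genes in all at an unadjusted p under 0.05 and 0 receptors called by DESeq2. For Ccr4 the 2 organ differences differed by 0.18 on the log2 scale (edgeR adjusted p = 0.898) and for Ccr6 by -2.12 (0.643).

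The reporter gates were compared to ask which receptors go with Il4 transcription in the nodes. Of 7 receptors tested, 4 were higher in IL-4eGFP+ cells and 1 was lower, where 62.8% of 11277 genes passed, so that 5 calls of 7 lie near the share over all genes. The median log2 difference was 0.65 over the 7 receptors and -0.02 over all genes. Gate and library cannot be told apart, and myeloid markers summed to 27.1 to 109 CPM in IL-4eGFP+ and 4.52 to 23.9 CPM in IL-4eGFP- samples. Naive T cell markers summed to 749 to 833 CPM in IL-4eGFP+ and 1977 to 2211 CPM in IL-4eGFP- samples, with 5 of 5 lower in the first. The part of either list in the gate differences was not tested.

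Cxcr6 measured 76.8 to 112 CPM in the 4 IL-4eGFP+ samples and 3.24 to 5.85 CPM in the 4 IL-4eGFP- samples. The lowest value of the first gate was above the highest of the second by a wide margin, and the log2 difference was 4.18 (SE 0.131, edgeR adjusted p = 2.07e-10). Ccr2 measured 54.3, 50.1, 41.6 and 42.1 CPM in IL-4eGFP+ cells of medLN 1, medLN 2, MLN 1 and MLN 2 against 2.86, 8.78, 1.99 and 3.95 in IL-4eGFP- cells, a log2 difference of 3.25 (SE 0.221, edgeR adjusted p = 9.54e-08). Ccr4 measured 57.8 to 94.4 against 9.55 to 13.3 CPM (2.55, SE 0.0818, edgeR adjusted p = 2.4e-10). Each of these 3 receptors, and Cxcr4 as well, was higher in IL-4eGFP+ cells in both nodes of both mice. The share of all genes that did so was not counted. Cxcr4 differed less, with 18.2 to 25.9 against 9.08 to 14.9 CPM (0.65, SE 0.160, edgeR adjusted p = 0.00364).

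Ccr6 went the other way. It measured 0, 0.423, 0.764 and 0.755 CPM in IL-4eGFP+ cells of medLN 1, medLN 2, MLN 1 and MLN 2 and 4.67, 5.45, 4.35 and 3.31 CPM in IL-4eGFP- cells. The values rest on 19 and 138 UMIs, and the log2 difference was -3.34 (SE 0.419, edgeR adjusted p = 2.2e-05). In IL-4eGFP+ cells of medLN 1, 0 of 2058 cells had a Ccr6 UMI, which allows up to 0.146%, while 0.738% to 1.34% of IL-4eGFP- cells of each sample had one, above the 0.224% of the naive-like cells among them. Ccr10 gave 33 UMIs in IL-4eGFP+ and 7 in IL-4eGFP- cells and was too low to test.

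Cxcr3 did not differ between the gates beyond its spread, at 11.7 to 17.3 against 8.05 to 15.3 CPM (log2 difference 0.22, edgeR adjusted p = 0.292), although it was called without medLN 2 IL-4eGFP- (0.44, edgeR adjusted p = 0.0284). Ccr8 did not separate the gates either. It measured 9.19, 7.61, 4.58 and 7.17 CPM in IL-4eGFP+ cells and 5.84, 14.1, 4.72 and 2.93 in IL-4eGFP- cells of medLN 1, medLN 2, MLN 1 and MLN 2 (log2 difference -0.08, 95% interval -0.70 to 0.53, edgeR adjusted p = 0.815). With the cells holding a Foxp3 UMI left out of both gates, Ccr8 was higher in IL-4eGFP+ cells by 1.29 (SE 0.289, edgeR adjusted p = 0.00176) and the log2 difference of Ccr2 was 5.11. Leaving these cells out was chosen after seeing the data.

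Of 5 other receptors tested between the gates, 3 were higher in IL-4eGFP+ cells and 1 was lower. Ccr7, the receptor of naive T cells, was the lower one with 72.8 ± 20.5 against 341 ± 9.60 CPM (SD, n = 4 samples from 2 mice). Cxcr5 was higher with 71.1 ± 15.9 against 6.46 ± 0.676. Ccr9 was higher with 45.6 ± 42.8 against 8.81 ± 4.59. Of 4 ligands 1 was higher, the CCR8 ligand Ccl8, at 7.61 ± 4.82 against 1.54 ± 0.993 CPM. Myeloid markers were higher in this gate too, 5 of 5 tested, and their part in the Ccl8 difference was not tested. Signaling genes had 11 higher and 5 lower of 21, where 62.8% of all genes passed, with Gng2, a G protein gamma subunit, at 138 ± 7.87 against 30.2 ± 1.96 and Pik3r5 at 10.6 ± 1.78 against 36.7 ± 0.644. Desensitization genes had 4 higher and 4 lower of 12, against the same 62.8%, with Rgs1 higher and Grk6 and Rgs19 lower.

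**Figure D3:**
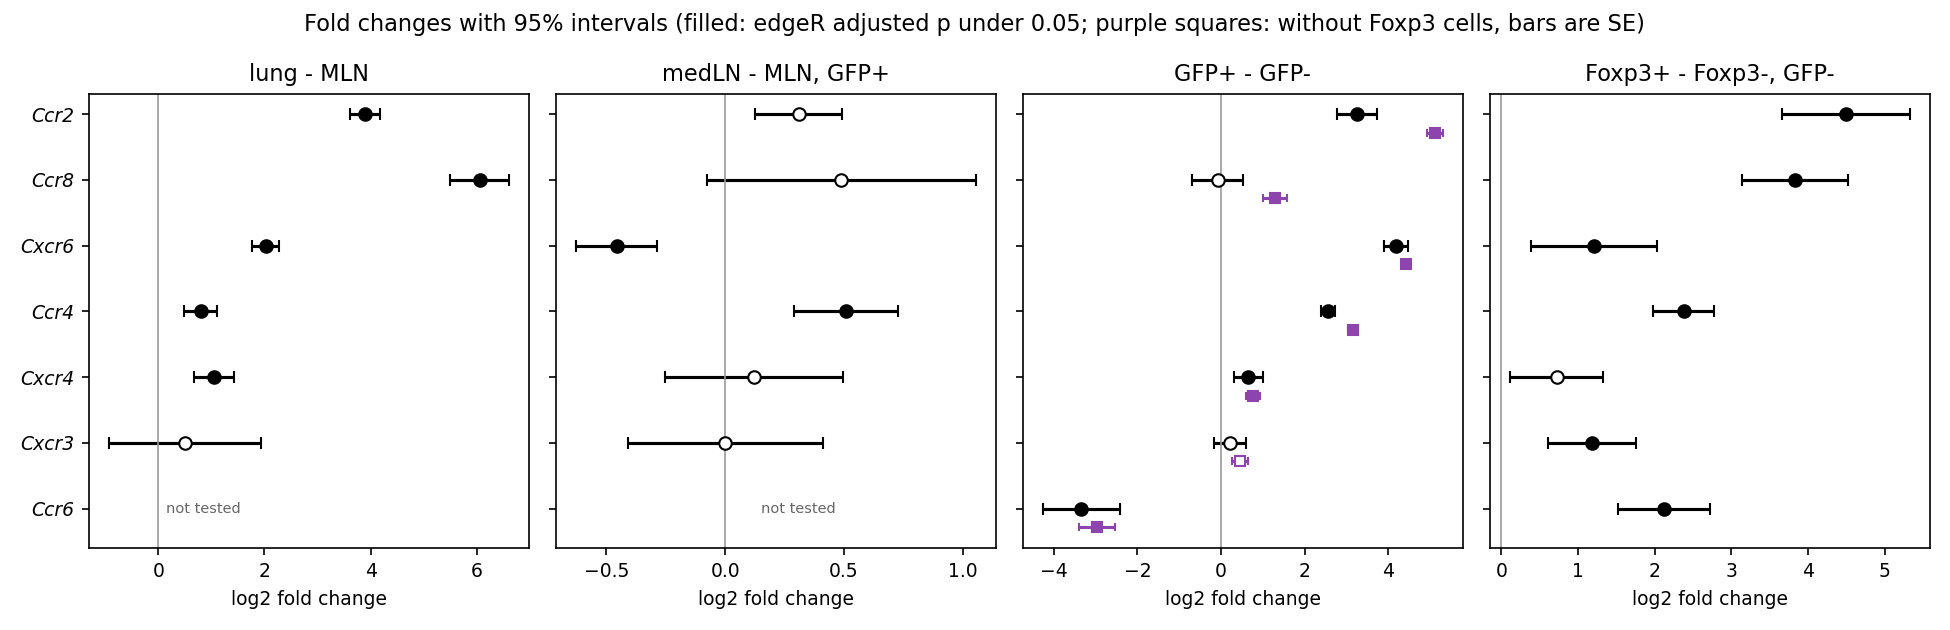
Log2 fold change (horizontal axis) of each receptor with its 95% interval in lung against MLN, medLN against MLN in IL-4eGFP+ cells, IL-4eGFP+ against IL-4eGFP- cells and Foxp3-positive against Foxp3-negative IL-4eGFP- cells, filled where the edgeR adjusted p was under 0.05. Purple squares with SE bars give the values with Foxp3 cells left out, and Ccr8 between the gates moves from -0.08 to 1.29.

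Cells with a Foxp3 UMI, the factor that defines Treg cells, were set against the other IL-4eGFP- cells of the same samples. They made up 8.40% to 12.3% of cells in these samples, and 1.02% to 3.24% of IL-4eGFP+ cells. Of 7 receptors tested 6 were higher in them, where 27.2% of 10101 genes passed, and the median log2 difference was 2.12 over the receptors and -0.01 over all genes. The groups of each such split come from 1 library, and a cell with more UMIs is more likely to show any given gene. Naive T cell markers were lower in cells with Foxp3, 5 of 5 tested. The 4017 naive-like cells all lay in the group without Foxp3. The part of naive cells in the receptor differences was not tested.

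Ccr8 measured 31.9, 76.5, 28.2 and 21.0 CPM in the Foxp3-positive cells of medLN 1, medLN 2, MLN 1 and MLN 2 and 2.22, 4.16, 2.58 and 0.851 in the others. The groups did not overlap, and the log2 difference was 3.83 (SE 0.327, edgeR adjusted p = 1.51e-07, n = 4 samples from 2 mice). Ccr2 measured 19.2, 49.4, 17.8 and 28.4 CPM against 0.591, 2.31, 0.543 and 1.14 (4.49, SE 0.393, edgeR adjusted p = 2.1e-07). In both genes medLN 2 was highest in either group of cells. Ccr4 measured 38.3 to 54.2 CPM against 5.68 to 9.61 (2.38, SE 0.188, edgeR adjusted p = 6.63e-08), and Ccr6 measured 7.41 to 19.4 against 2.84 to 3.26 (2.12, SE 0.283, edgeR adjusted p = 2.16e-05).

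Cxcr3 measured 18.1 to 28.4 CPM in Foxp3-positive and 6.65 to 13.9 in the other cells (1.18, edgeR adjusted p = 0.00329), and Cxcr6 measured 5.32, 15.5, 2.96 and 13.6 in medLN 1, medLN 2, MLN 1 and MLN 2 against 2.96, 4.32, 3.53 and 4.40 (1.21, edgeR adjusted p = 0.0279). The Cxcr6 values overlapped, and its call was lost without MLN 1 Foxp3-negative (edgeR adjusted p = 0.0664), MLN 2 Foxp3-positive (0.147), medLN 1 Foxp3-negative (0.0866) or medLN 2 Foxp3-positive cells (0.267). In cells of equal depth neither Cxcr3 (0.75, edgeR adjusted p = 0.207) nor Cxcr6 (1.04, edgeR adjusted p = 0.215) passed. Cxcr4 did not pass (0.72, edgeR adjusted p = 0.0727).

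Counted from the receptor's side, 13 of 17, 18 of 24, 6 of 9 and 12 of 15 Ccr2-positive IL-4eGFP- cells of medLN 1, medLN 2, MLN 1 and MLN 2 had a Foxp3 UMI. For Ccr8 these were 17 of 28, 37 of 54, 9 of 27 and 10 of 15. Most Ccr2-positive and Ccr8-positive cells outside the reporter gate thus held Foxp3, apart from Ccr8 in MLN 1. After thinning they were 22 of 34 for Ccr8 in medLN 2, where 8.68% of all cells had a Foxp3 UMI. Among lung IL-4eGFP+ cells, 6 of 1082 and 3 of 416 held a Foxp3 UMI. Summed Treg markers, a list that holds Foxp3 and also Ctla4 and Il2ra, which activated T cells share, came to 895 and 793 CPM in the lung against 298 and 262 CPM in the MLN, and their part in the lung differences of Ccr8 and Ccr2 was not tested.

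Within the lung, cells with a UMI of Il5 or Il13, the effector cytokines of Th2 cells, were set against the other cells. There were 351 and 88 such cells in lung 1 and lung 2, against 731 and 328 without. Of 6 receptors tested 1 was higher in them, where 0.451% of 9306 genes passed. Ccr8 measured 278 and 281 CPM in cells with Il5 or Il13 and 127 and 99.3 CPM in the others, a log2 difference of 1.26 (SE 0.175, edgeR adjusted p = 0.0321), and 1.15 in cells of equal depth (edgeR adjusted p = 0.0129). With the mouse as a block all 6 passed, 4 of them lower in cells with the cytokines, where 894 of 9306 genes passed. This block fit has only 2 sums from each of 2 mice, and its p-values do not measure how far the mice agree. Ccr4 measured 48.9 and 102 CPM in cells with the cytokines and 117 and 145 CPM in the others (log2 difference -0.97, edgeR adjusted p = 0.237, with the block -1.01 and 4.35e-14).

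Cxcr4 measured 15.3 and 14.2 CPM against 28.1 and 38.9 (-1.11, edgeR adjusted p = 0.132, with the block -1.04 and 0.00014), and Cxcr3 measured 1.33 and 12.8 against 7.49 and 39.8 (-2.39, edgeR adjusted p = 0.536, with the block -1.97 and 1.13e-05). Both were lower in cells with the cytokines in each mouse. Ccr2 measured 207 and 264 CPM against 308 and 287 (-0.39, edgeR adjusted p = 0.455, with the block -0.42 and 0.000105) and Cxcr6 measured 636 and 590 against 462 and 590 (0.21, edgeR adjusted p = 0.730, with the block 0.24 and 0.0188). The sign of the Ccr2 value turned in cells of equal depth, where it was 0.10.

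In thinned lung cells, 34.1% and 27.5% of Ccr8-positive cells had an Il5 or Il13 UMI, against 232 of 1068 and 53 of 408 of all cells, 70 of 350 and 19 of 142 Ccr2-positive cells and 11.6% and 8.33% of Ccr4-positive cells. The order from Ccr8 through Ccr2 to Ccr4 was the same in both mice. The nodes held few such cells, and there Ccr8-positive cells were few too. In IL-4eGFP+ cells of medLN 1, medLN 2, MLN 1 and MLN 2, unthinned, 19 of 55, 11 of 57, 4 of 26 and 17 of 47 Ccr8-positive cells had an Il5 or Il13 UMI, against 1.00% to 3.64% of all cells.

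Clone size and cycling were the last splits. Size was counted within each library, so a clone with 1 lung cell can have others in the MLN. Lung cells of clones with at least 2 cells in that library (327 and 71, against 755 and 345 of clones with 1) had 696 and 669 CPM of Cxcr6 against 455 and 575. For Ccr4 these were 71.3 and 91.0 CPM against 102 and 143. Neither passed edgeR's test (log2 differences 0.41 and -0.63, edgeR adjusted p = 1.00 for both), where 0.0109% of 9204 genes did and 285, these 2 among them, had an unadjusted p under 0.05. Both passed with the mouse as a block (edgeR adjusted p = 0.00016 and 0.0233), where 107 of 9204 genes did. That fit too has only 2 sums from each of 2 mice. In the MLN no receptor passed edgeR's test where 0.0102% of 9848 genes did, and 310, with Ccr8 and Cxcr3 among them, had an unadjusted p under 0.05. DESeq2 called 0 receptors in either organ.

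Between cells with and without a UMI of the cycling genes Mki67 or Top2a, 0 receptors passed edgeR's test where 19.3% of 9888 genes did, and 3229, of the receptors Ccr2, had an unadjusted p under 0.05, while DESeq2 called 0 receptors. Ccr2 measured 187 and 241 CPM in cycling and 320 and 301 in other lung cells. In the MLN it measured 15.3 and 29.0 against 21.6 and 18.3, and the mice went opposite ways. The log2 difference of Ccr2 was -0.42 (edgeR adjusted p = 0.0887), and -0.45 with the library as a block (edgeR adjusted p = 0.0245). With this block 2573 of 10159 genes passed. Cxcr3 (-0.88, edgeR adjusted p = 0.316) passed with the block as well (-0.66, edgeR adjusted p = 0.0239), and Ccr4 did not pass at -0.25 (edgeR adjusted p = 0.167).

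**Figure D4:**
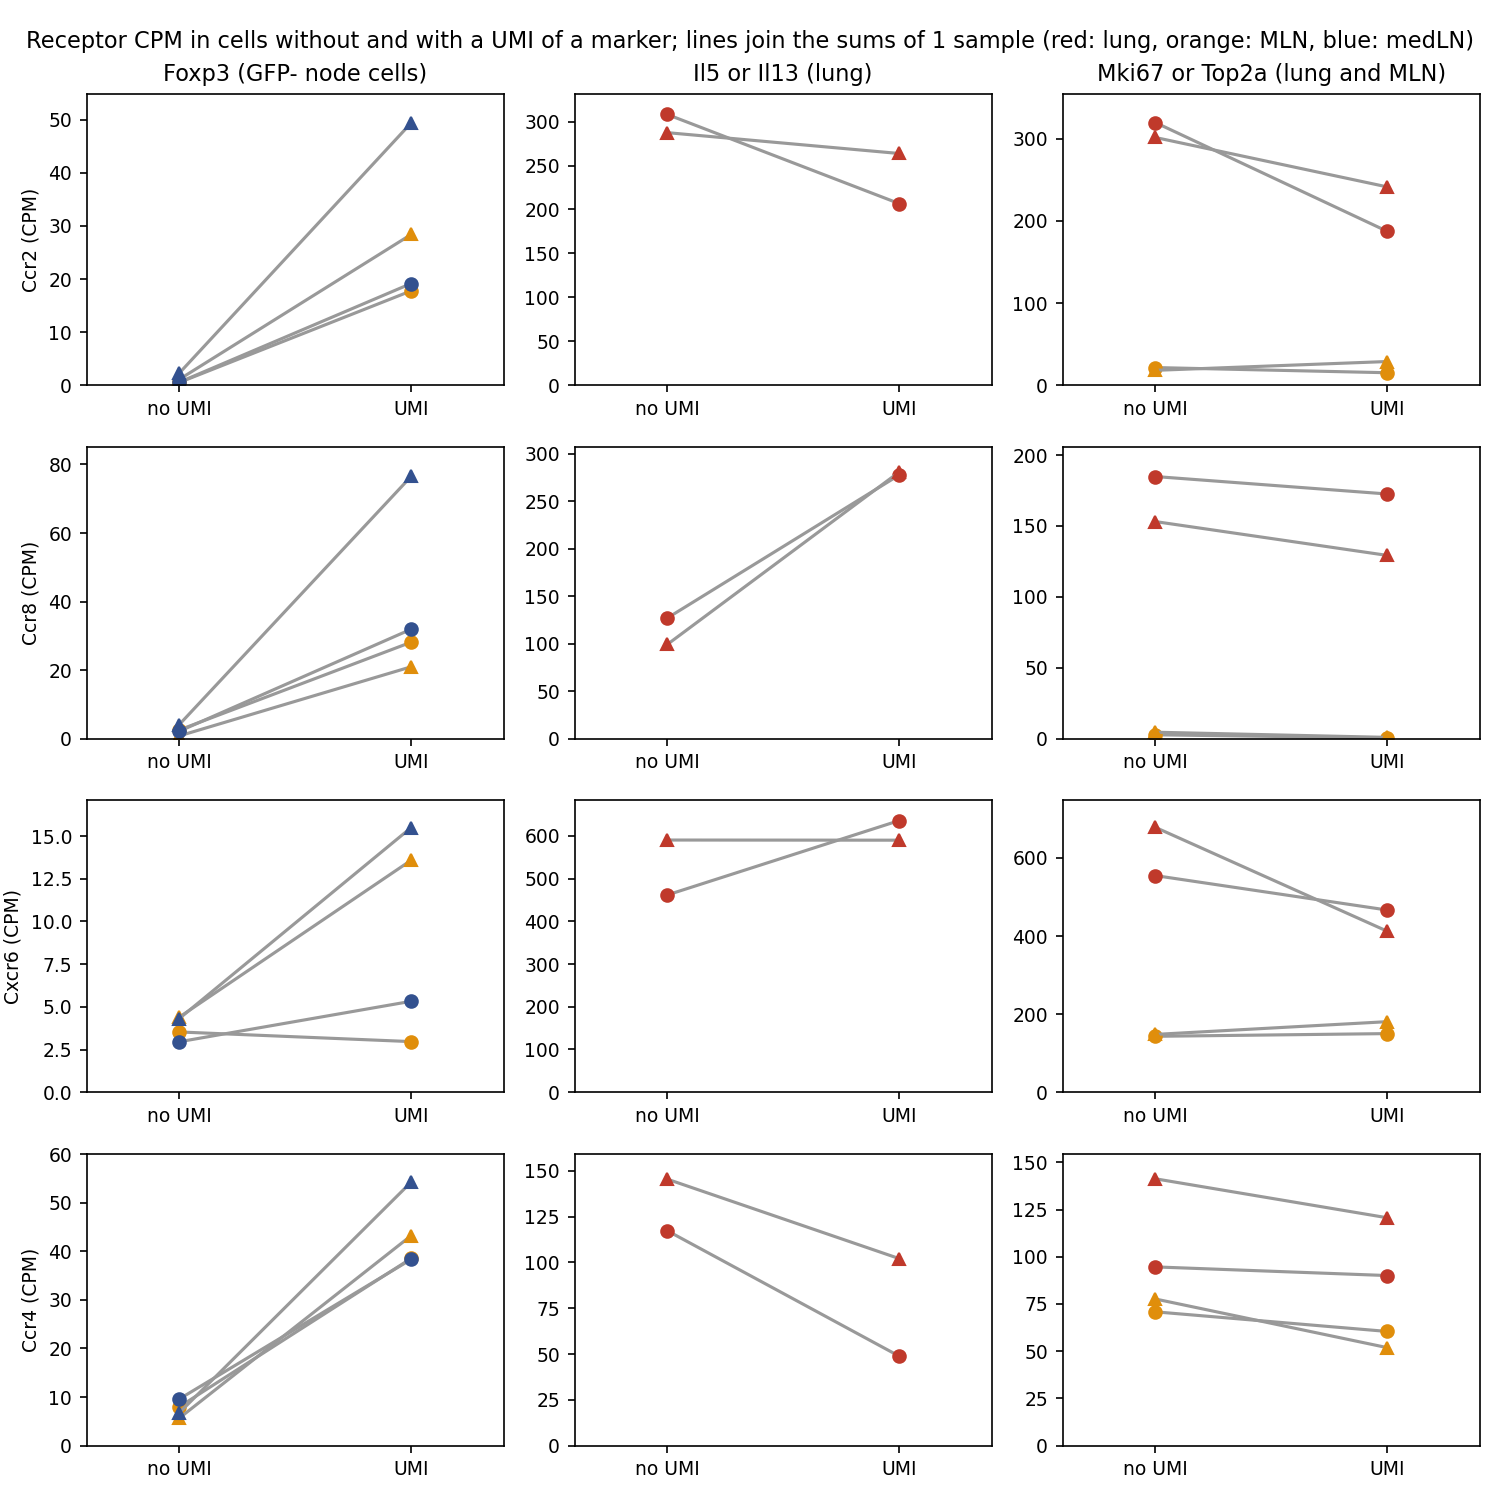
CPM of Ccr2, Ccr8, Cxcr6 and Ccr4 (vertical axis, linear, from 0) in cells without and with a UMI of Foxp3 (IL-4eGFP- cells of medLN in blue and MLN in orange), of Il5 or Il13 (lung, red) and of Mki67 or Top2a (lung in red, MLN in orange), each line joining the cells of 1 sample. Ccr8 and Ccr2 rise from without to with Foxp3 in each of the 4 node samples, and Ccr8 goes from 127 and 99.3 to 278 and 281 CPM in lung cells with Il5 or Il13.

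The receptors were next counted together in single thinned cells. At least 1 of the 8 was found in 78.2% and 83.1% of lung cells, in 33.3% and 34.1% of MLN cells, in 30.3% to 34.0% of IL-4eGFP+ node cells and in 5.69% to 9.63% of IL-4eGFP- node cells. Lung cells had exactly 1 receptor in 37.3% and 38.0%, 2 in 31.5% and 35.3% and 3 or more in 9.46% and 9.80%. In MLN 1 these were 28.4%, 4.65% and 0.290%. Combinations were thus common in the lung and rare in the nodes.

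**Figure D5:**
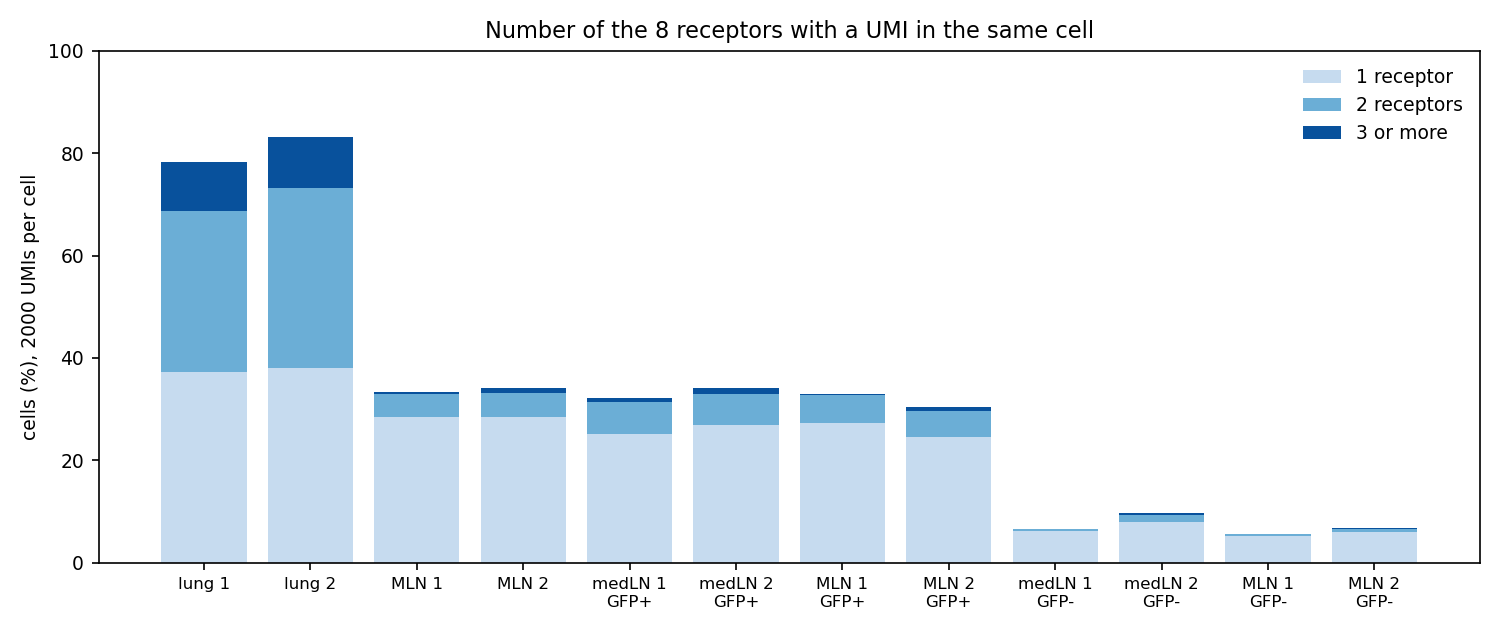
Percent of thinned cells (vertical axis, from 0) in which exactly 1, exactly 2 or at least 3 of the 8 receptors were found, stacked for each of the 12 samples. The lung bars reach 78.2% and 83.1%, the IL-4eGFP+ node bars 30.3% to 34.0% and the IL-4eGFP- bars at most 9.63%.

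Which receptors shared a cell differed by pair, read against the product of the 2 shares as a description. Ccr2 and Cxcr6 were found together in 224 and 93 lung cells, where the product of their shares gave 191 and 82.5, and in 35 and 14 MLN cells, where it gave 13.7 and 4.68. In the 4 IL-4eGFP+ samples of medLN 1, medLN 2, MLN 1 and MLN 2 they met in 52, 54, 40 and 50 cells against 15.6, 14.5, 12.7 and 15.1. The count was thus above the product in each of the 8 IL-4eGFP+ samples. Cxcr3 and Cxcr6 met in 21 and 7 MLN cells against 7.46 and 5.05. Ccr8 and Cxcr6 met in 146 and 52 lung cells against 127 and 46.5, while Ccr2 and Ccr8 met in 63 and 20 against 76.0 and 27.8. In IL-4eGFP+ cells of the second run Ccr2 and Ccr8 met in 4 and 5 medLN cells against 1.54 and 1.20. In the MLN of that run they met in 2 and 1 cells against 0.487 and 0.984. The MLN libraries of the first run had 0 such cells, against 0.145 and 0.101. Ccr4 and Cxcr6 met no more often than the product in the 8 IL-4eGFP+ samples, with 78 and 36 lung cells against 84.8 and 41.8 and 46 and 15 MLN cells against 53.0 and 16.3. In the IL-4eGFP+ samples of medLN 1, medLN 2, MLN 1 and MLN 2 they met in 25, 31, 34 and 21 cells against 28.8, 31.7, 34.1 and 26.8. Counts of medLN 2 and MLN 1 were thus about equal to the product.

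Genes outside the set also set Cxcr3 and Cxcr4 apart. In unthinned cells, 12 of 30 and 21 of 44 Cxcr3-positive lung cells had a UMI of Tbx21, the Th1 factor, against 3.14% and 9.13% of all lung cells, and 21.5% of Cxcr3-positive MLN 1 cells did against 0.812% of all. After thinning, Tbx21 was in 7 of 19 Cxcr3-positive cells of lung 2 against 6.13% of all. Part of the MLN signal of Cxcr3 lay in cells with invariant TCR alpha chains, which mark innate-like T cells, and the 45 and 20 MLN cells with such chains held 35 of 123 and 23 of 78 Cxcr3 UMIs. In these cells Cxcr3 measured 137 and 250 CPM and Cxcr6 509 and 772 CPM.

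Cxcr4-positive MLN cells of the first run had a Cxcr5 UMI in 52.9% and 51.8%, against 40.5% and 36.1% of all cells, and in thinned cells these were 31.0% and 9 of 18 against 22.4% and 18.2%. In the thinned IL-4eGFP+ samples of the second run the shares were 11.8% to 23.3% against 11.5% to 16.8%, with 11.8% against 11.5% in medLN 1. Ccr2-positive cells were nearly free of Cxcr5, with 4.44% of them in MLN 1 and 1.87% to 3.87% in the IL-4eGFP+ samples of the second run, where 16.0% to 25.4% of all cells had it. Cxcr4 and Ccr2 thus went with cells that differed in this follicle receptor.

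TCR sequences joined cells of 1 clone across organs in the first run. Clones found in both organs had 142 and 32 lung cells and 186 and 22 MLN cells in mouse 1 and mouse 2. Among MLN cells, those of such clones had 33.2 and 107 CPM of Ccr2 (38 and 14 UMIs) against 19.0 and 18.0 in clones of 1 organ. Ccr2 was thus higher in shared clones of both mice, on few UMIs, while Cxcr6 measured 235 and 122 CPM against 137 and 156 and did not go one way. Ccr8 was not found in MLN cells of shared clones, with 0 of 186 and 0 of 22 cells, against 13 of 2276 and 9 of 732 cells of other clones, which are too few to compare. In the lung, Ccr2 measured 241 and 396 CPM in shared and 278 and 270 CPM in other clones.

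Across the 12 samples, after each run's mean was subtracted, the receptors did not all follow one course. Pearson's r of log2(CPM + 1) was 0.954 between Ccr4 and Cxcr6, 0.932 between Ccr2 and Cxcr4 and 0.922 between Ccr2 and Cxcr6, but 0.662 between Ccr8 and Ccr2 and 0.237 between Ccr8 and Ccr4, and it was -0.955 between Ccr4 and Ccr6. These values mostly restate the gate and organ differences, since cells of 1 library share its depth and gate, and no p is given. Among 6238 genes with at least 20 CPM, those most like Ccr8 were Tnfrsf1b (0.979), Xlr4b (0.979) and Nfkbid (0.978), those most like Ccr2 were Gnb2 (0.986), Kdm2b (0.986) and Cd200r1 (0.984), and those most like Cxcr6 were Kcnk5 (0.992), Ptpn13 (0.991) and Cd2bp2. For Ccr4 they were Ndc80, Id2 and Rsph3a, for Cxcr4 Pnn, Cab39 and Ywhab, for Cxcr3 Rbm26 and Ep300 among others, and for Ccr6 Il21r, Zfp281 and Tmie. The closest gene to Ccr10, which rests on few UMIs, was Rit1 at 0.824.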

How the data were processed

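Single-cell gene expression (10x, 5′) of sorted CD4+ T cells was analysed over 16 deposited samples, including TCR contigs and hashtag reads. The values used are raw UMI counts that the authors made with Cell Ranger. The submitters' processing notes name versions 2.1.1 and 3.0.1, and the files of the second run version 6.1.2, with the mm10 (GRCm38) genome. The second run is 1 aggregated matrix, and whether reads were equalised in it is not given in the sources used here.

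Cells with over 500 UMIs, over 500 genes, under 7% mitochondrial counts and a novelty score over 0.8 were kept, in the first run also with productive TCR alpha and beta chains, which left 4714 of 6319 barcodes there and 16748 of 19683 in the second run. Hashtags were called with HTODemux (Seurat 5.3.0), which removed 2536 doublets and 122 negative cells. Scrublet (scanpy 1.11.5) marked 15 and 2 cells, too few to have worked. In the second run the alternative without doublets rested on these calls alone. It returned the same counts of genes called as the main fit, so it tests nothing there. Depth was 2789696 to 14441217 UMIs per sample in the first run and 7518830 to 10593203 in the second, which bounds the precision of rare receptors. The gate libraries of the second run (8074 and 8674 cells) shared 113 barcodes, and sample pairs of the first run 0 to 8.

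UMIs were summed per sample, or per sample and split, and tested with edgeR 4.0.16 (R 4.3.3, filterByExpr, TMM, quasi-likelihood test, Benjamini-Hochberg threshold 0.05) over all genes without 271 TCR genes. Promoters, exact Clopper-Pearson intervals (95%, a count of 0 read as up to 3) and descriptions used Python 3.11.15 with scipy 1.17.1. Scripts were tested on simulated data. Alternatives were DESeq2 1.42.0, its size factors, no filter, each sample left out, a replicate block and doublets removed. Others were cells thinned to 2000 UMIs, no TCR criterion, and hashtags called at 80% of reads. The block was the mouse, with the following exceptions. For the gates, their organ test and the Foxp3 split it was the hashtag sample (organ and mouse), and for the cycling split the library. Leaving out Foxp3, myeloid or invariant TCR cells was added after seeing the data. Same-numbered samples came from the same mouse. Their deviations from the group means correlated at 0.0377 (lung and MLN), 0.235 and 0.117 (nodes, IL-4eGFP+ and IL-4eGFP-) and 0.15 to 0.157 (gates). For the 2 sums of 1 split sample the values were 0.225 (Il5 or Il13), 0.205 and 0.168 (clones, lung and MLN). They were 0.24 and 0.153 for cycling (lung and MLN) and 0.0865 and 0.0867 for Foxp3 (medLN and MLN). The main tests took these sums as independent too. Named genes were all 8 receptors and up to 3 called genes with the smallest p per list, with Ccr7, Ccr9 and Cxcr5. Some planned splits and genes are not reported here, and naive-like cells were therefore chosen without 1 planned marker. The receptors and lists were chosen with earlier results of these data known. Authors' cell annotations were not used here. P-values rest on 2 mice per run, and samples of 1 mouse were treated as independent in the main tests. Groups of 4 sums (gates, their organ test, Foxp3 and cycling splits) hold 2 organs of each of 2 mice. Their p-values thus do not measure the spread between mice alone.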

Additional observations from a re-analysis of the deposited data

How the results depend on the processing

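For the 39 log2 differences reported here, 454 of 509 alternative values kept direction and side of the threshold. Another 17 lost a call, 30 gained one and 8 changed sign. Receptor differences tested but not reported were not counted. Some of them were small, such as Cxcr3 between the nodes in IL-4eGFP+ cells (0.000373). The removal of doublets counted here dropped at most 2 cells in the second run. The sign changes were Cxcr3 in lung against MLN (-0.96 to 1.55 with a library left out, -0.23 in thinned cells), Ccr8 between the gates (-0.29 to 0.39 with a sample left out, 1.29 without Foxp3 cells), Cxcr4 in the Foxp3 split (-0.0307 thinned) and Ccr2 in the Il5 or Il13 split (0.10 thinned). The cause was not tested.

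Counts of receptors called moved as follows. Between the nodes in IL-4eGFP+ cells, 2 became 0 without the filter, 0 in thinned cells, 1 with hashtags called by share and 0 to 2 with a sample left out, and in IL-4eGFP- cells 0 became 0 to 2 with a sample left out. In the Il5 or Il13 split 1 became 4 without the filter, 6 with the mouse as a block and 1 to 4 with a sample left out. For expanded clones 0 became 2 in the lung with the block and 1 in the MLN without the filter. In the cycling split 0 became 2 without the filter, 2 with the block and 0 to 1 with a sample left out. Between the gates 5 became 5 to 6 with a sample left out, and in the Foxp3 split 6 became 5 to 7, where Cxcr4 passed without the Foxp3-negative cells of MLN 2 (edgeR adjusted p = 0.0134) or its Foxp3-positive cells (0.0468). In thinned cells the Foxp3 split lost the calls of Cxcr3 and Cxcr6. The block changed no other call of a receptor. Lung against MLN called 5 receptors under each alternative run except without lung 1, which called 6.

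Counts over all genes moved more. Lung against MLN ran from 1803 (DESeq2) to 3919 (no filter) around 3284, the nodes in IL-4eGFP+ cells from 13 (without medLN 1) to 191 (block) around 144 and in IL-4eGFP- cells from 2 (no filter) to 194 (without medLN 1) around 19, the gates from 5069 (thinned) to 7351 around 7085 and their organ test from 4 to 81 (block) around 18. The Foxp3 split ran from 1424 (thinned) to 3166 around 2746, and Il5 or Il13 from 41 to 894 (block) around 42. Expanded clones reached 107 in the lung and 63 in the MLN with the block, from 1 each, and cycling ran from 355 (thinned) to 2573 (block) around 1904. Higher calls were 40.5% in the Il5 or Il13 split and 50.7% with DESeq2.

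Thinning lowered the shares of cells with a UMI in lung 1, lung 2, MLN 1 and MLN 2 to 32.8%, 34.8%, 2.90% and 3.36% for Ccr2, to 14.5%, 17.6%, 11.2% and 11.7% for Ccr4, to 21.7%, 19.6%, 0.207% and 0.404% for Ccr8 and to 54.7%, 58.1%, 19.6% and 18.7% for Cxcr6. Few UMIs limit what can be said of Ccr6 and Ccr10, and 2 mice per run limit every test.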
